A study of Mus musculus with 10 samples.

Results

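The 48 genes described here encode the machinery that carries proteins between the endoplasmic reticulum (ER) and the Golgi. They were taken by symbol from a fixed list and all 48 were found among the 26434 gene symbols of the RNA-seq tables. RNA was measured in mouse plasma cells and in naive B cells, with 1 library per cell type among the 10 samples of the series. Both libraries came from wild-type C57BL/6 mice. The plasma library carries conflicting labels: its source field names cells activated in culture and then sorted, whereas its extraction protocol describes a bone marrow sort for CD138+ cells lacking B220, IgD, CD4, CD8, Gr1 and Ter119. The naive library was made from splenic cells sorted as CD23+ and IgD+. Whether animals were pooled is not given in the sources used here. Their ages are not stated either. The series title names the unfolded protein response in plasma cells, and these genes serve the secretion that such cells carry out.

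Proteins leave the ER in vesicles coated by COPII. The GTPase Sar1 recruits the inner coat of Sec23 and Sec24, in which Sec24 binds cargo, and the outer cage of Sec13 and Sec31 then closes over it. Cargo receptors such as Lman1 bridge soluble cargo to the coat. COPI vesicles, recruited by Arf GTPases, bring escaped ER residents back with the help of the KDEL receptors. SNAREs fuse the vesicles, and Rab1 with tethers and golgins captures them first. Plasma cells secrete antibody at a high rate, and all of it passes along this route.

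The plasma library held 43457786 and the naive library 36995177 estimated counts. Plasma cell markers summed to 7996 TPM (an abundance per transcript length that has the same total in each library) in the plasma library and 1021 TPM in the naive library. Naive B cell markers summed to 2208 TPM in the plasma library and 9973 TPM in the naive library, with Fcer2a, which encodes the sort marker CD23, at 6.78 TPM in plasma cells and 1062 TPM in naive B cells. Cd79a, a chain of the B cell receptor, made the largest part of the sum in plasma cells, at 1181 TPM in plasma cells and 2572 TPM in naive B cells. Sdc1, which encodes CD138, was at 5.38 TPM in plasma cells and 11.1 TPM in naive B cells, so its transcript was not higher in the library whose protocol names a CD138+ sort. The plasma cell marker Tnfrsf17 was low in both, at 1.68 TPM in plasma cells and 2.24 TPM in naive B cells. Prdm1, which encodes the plasma cell regulator Blimp-1, was at 249 TPM in plasma cells and 2.29 TPM in naive B cells. Markers of T and NK cells summed to 5.16 TPM in plasma cells and 113 TPM in naive B cells, with 5 of 12 at 0 in plasma cells and none at 0 in naive B cells. Those of neutrophils and monocytes summed to 2.32 TPM in plasma cells and 149 TPM in naive B cells (1 of 10 at 0 in plasma cells), and erythroid and platelet markers to 2.29 TPM in plasma cells and 83.1 TPM in naive B cells (6 of 8 at 0 in plasma cells). Their part in the results was not tested. In bulk RNA a lower share of cells of a type and less RNA per cell cannot be told apart.

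All 48 genes reached 5 TPM in at least 1 library. In plasma cells 29 of them were at least 2-fold higher than in naive B cells, 19 lay between and none was at least 2-fold lower. By the same rule, of the 10191 genes of the whole table that passed 5 TPM in a library, 16.0% were higher and 22.0% lower. The ratio used is log2 of plasma over naive TPM after 1 TPM was added to each, centred on the median of the 7488 genes that reached 5 TPM in both libraries, and a gene counts as 2-fold higher from a centred ratio of 1. The median centred ratio of the 48 genes was 1.27 (from -0.68 to 4.53), and that of all genes with at least 1 TPM in 1 library was -0.13. There is no replicate, so none of these differences has a test. The intervals given below are 95% Clopper-Pearson intervals of the centred log2 ratio of estimated counts and cover counting error only.

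The centring matters for how these values read. The median gene stood 0.99 lower in plasma cells on the log2 scale, and immunoglobulin genes made up 34.8% of TPM in plasma cells and 5.03% in naive B cells. Without centring 11 of the 48 genes were at least 2-fold higher and 4 lower, namely Sec24b, Rab1b, Gosr1 and Trappc3, against 7.75% of all genes higher and 57.6% lower. With TMM factors on the counts 38 were higher and none lower, against 22.0% of all genes higher and 16.7% lower. A total that needs no centring is the share of the library: the 48 genes summed to 0.390% of TPM in plasma cells and 0.291% in naive B cells, and outside immunoglobulin genes to 0.598% of TPM in plasma cells and 0.306% in naive B cells. Sentences on higher genes below refer to the centred ratio, and the TPM beside them show the uncentred levels.

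**Figure D1:**
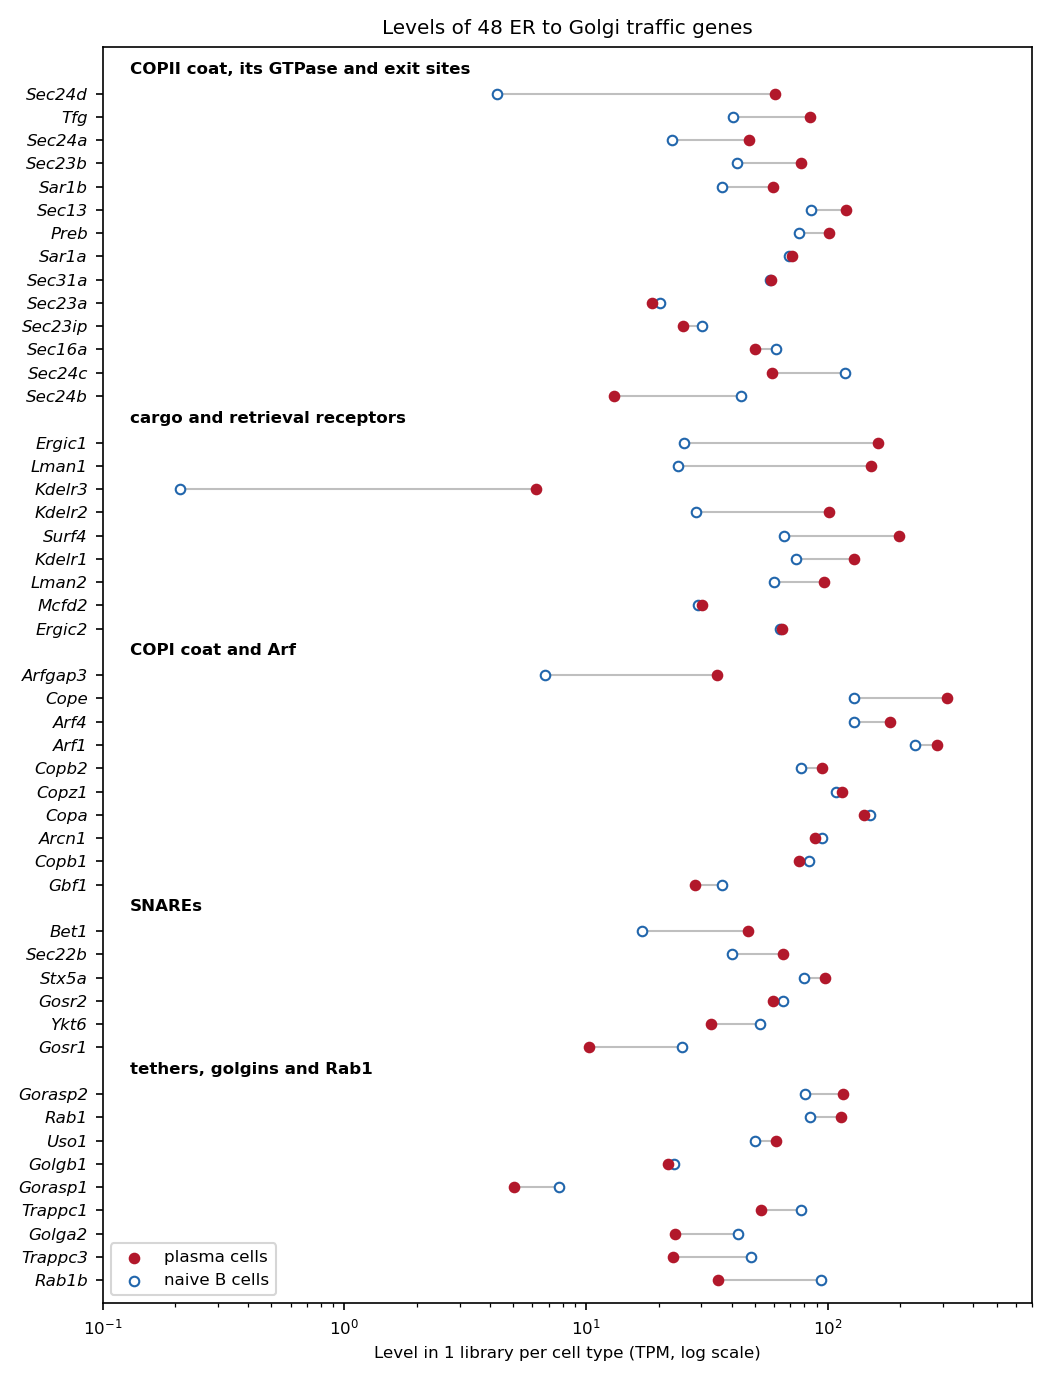
Levels of the 48 genes on a log axis in TPM, with plasma cells as filled red points and naive B cells as open blue points, 1 library each, ordered by ratio within each role. Sec24d and Kdelr3 show the widest gaps, at 60.4 and 6.21 TPM in plasma cells against 4.28 and 0.209 TPM in naive B cells, whereas the points of Sec31a and Sar1a lie almost on each other.

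**Figure D2:**
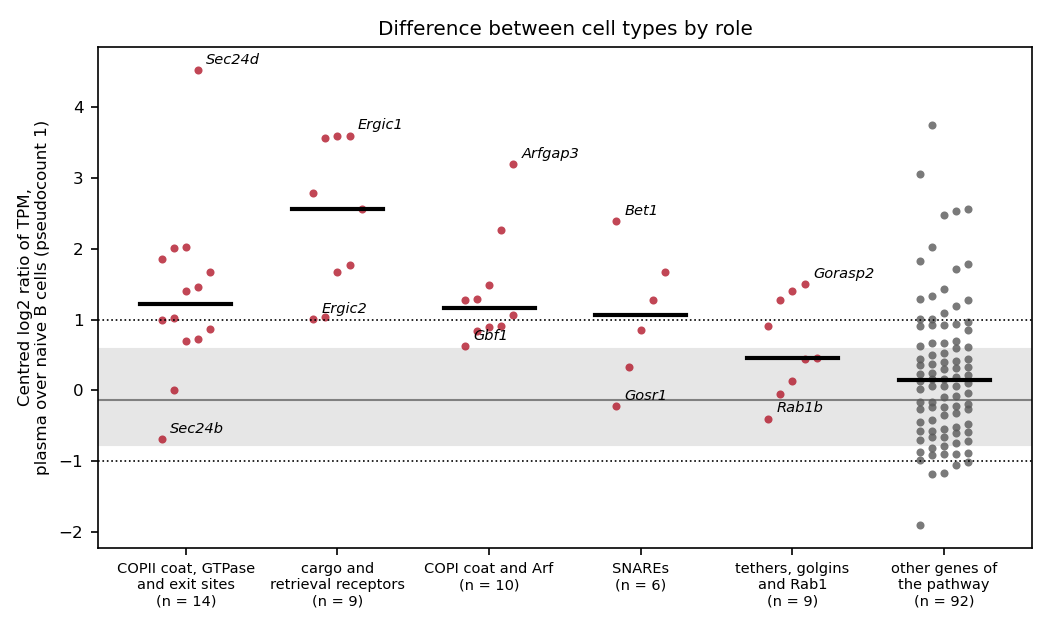
Centred log2 ratio of plasma over naive TPM for each gene by role, with the class median as a black bar, the other genes of the pathway in grey, and the lines at 1 and -1 marking 2-fold. The grey line and band show the median and the middle 50% of all genes with at least 1 TPM in 1 library. All 9 receptors lie above 1, whereas the tethers, golgins and Rab1 have a median of 0.45.

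Of 14 genes of the COPII coat, its GTPase and its exit sites, 8 were higher by 2-fold or more and the median was 1.21. None was 2-fold lower, in this or any other role, whereas of all genes 16.0% were higher and 22.0% lower. Sec24, the cargo-binding subunit of the inner coat, had the widest range of ratios of the 5 paralogue families compared. Sec24d was at 60.4 TPM in plasma cells and 4.28 TPM in naive B cells (9111 estimated counts in plasma cells and 342 in naive B cells), a centred ratio of 4.53 with an interval of 4.72 to 5.04 on the counts, to which no pseudocount is added. Sec24a was at 47.1 TPM in plasma cells and 22.7 TPM in naive B cells, a centred ratio of 2.01. The remaining paralogues had fewer TPM in plasma cells: Sec24c was at 58.9 TPM in plasma cells and 118 TPM in naive B cells, and Sec24b at 13.0 TPM in plasma cells and 43.6 TPM in naive B cells. Centred, Sec24c lay at the median gene (interval 0.02 to 0.10) and Sec24b at -0.68 (interval -0.69 to -0.54). The 4 genes together summed to 179 TPM in plasma cells and 188 TPM in naive B cells, so the uncentred total was close while its makeup was not. Relative to the median gene, which stood 0.99 lower in plasma cells on the log2 scale, that total was higher in plasma cells.

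Shares within the family need no scaling between libraries. Sec24d made up 33.7% of Sec24 TPM in plasma cells and 2.28% in naive B cells, and by counts 32.2% in plasma cells (exact binomial interval 31.6 to 32.7%) and 2.05% in naive B cells (1.84 to 2.28%). Sec24c made up 32.8% in plasma cells and 62.5% in naive B cells, so that Sec24d equalled Sec24c in plasma cells (1.02 times its level) and was at 0.0364 times its level in naive B cells. Sec24b took 7.25% in plasma cells and 23.2% in naive B cells, while Sec24a took 26.3% in plasma cells and 12.0% in naive B cells. By sequence Sec24a and Sec24b form one subfamily and Sec24c and Sec24d the other. The difference therefore ran within both subfamilies, with larger shares of Sec24a and Sec24d in plasma cells and of Sec24b and Sec24c in naive B cells.

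**Figure D3:**
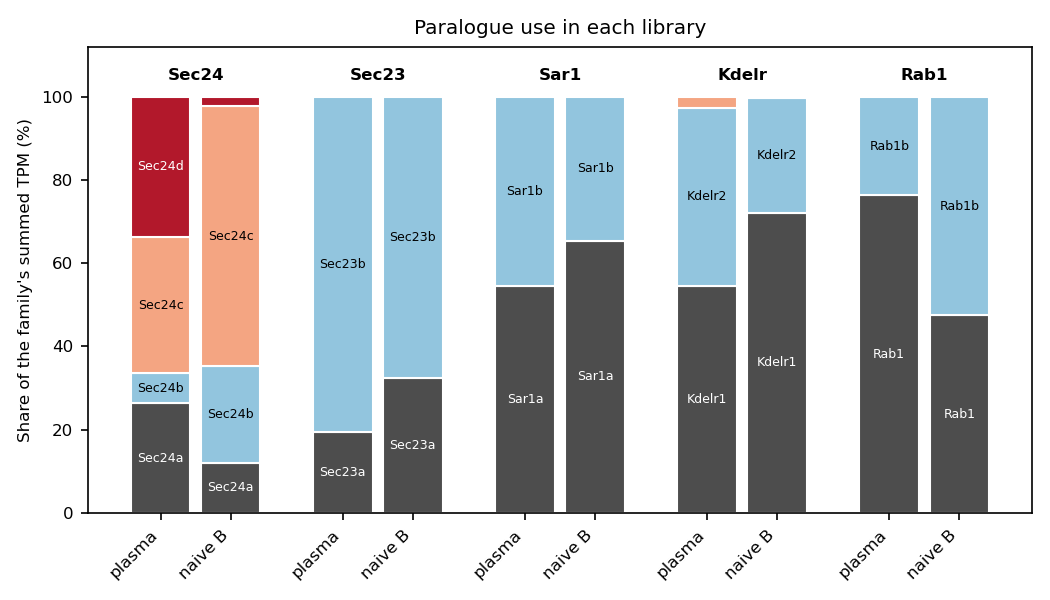
Share of each paralogue in the summed TPM of its family, plasma cells left and naive B cells right for each family, 1 library each. Sec24d fills 33.7% of the Sec24 bar in plasma cells and 2.28% in naive B cells. Kdelr3 is the thin top segment, at 2.63% in plasma cells and 0.204% in naive B cells.

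The promoters of the Sec24 genes are shown because the paralogues differed so widely. Each runs from 250 bases before to 50 bases after the start of the gene in RefSeq (GRCm38.p6), 5′ to 3′ on the strand of the gene, and capitals mark CCACGT or its reverse complement, letters found in sites bound by the unfolded protein response factor XBP1.
Sec24a (chr11:51756785-51757084, minus strand): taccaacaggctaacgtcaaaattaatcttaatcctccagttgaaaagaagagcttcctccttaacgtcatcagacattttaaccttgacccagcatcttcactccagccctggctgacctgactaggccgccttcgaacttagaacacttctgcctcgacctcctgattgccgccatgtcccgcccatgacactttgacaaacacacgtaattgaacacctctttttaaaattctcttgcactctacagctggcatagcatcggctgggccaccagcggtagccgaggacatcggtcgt
Sec24b (chr3:130060858-130061157, minus strand): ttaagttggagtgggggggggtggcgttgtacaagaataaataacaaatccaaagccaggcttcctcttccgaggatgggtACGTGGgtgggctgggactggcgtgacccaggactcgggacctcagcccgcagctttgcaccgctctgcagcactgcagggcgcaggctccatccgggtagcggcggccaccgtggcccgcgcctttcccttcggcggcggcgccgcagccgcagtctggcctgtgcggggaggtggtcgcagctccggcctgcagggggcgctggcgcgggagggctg
Sec24c (chr14:20674071-20674370, plus strand): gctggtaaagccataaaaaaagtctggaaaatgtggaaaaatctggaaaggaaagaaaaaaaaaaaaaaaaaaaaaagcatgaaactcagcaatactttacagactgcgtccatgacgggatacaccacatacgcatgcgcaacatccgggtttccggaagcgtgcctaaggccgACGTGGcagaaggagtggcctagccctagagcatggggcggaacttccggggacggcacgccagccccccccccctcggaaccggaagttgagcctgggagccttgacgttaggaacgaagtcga
Sec24d (chr3:123267246-123267545, plus strand): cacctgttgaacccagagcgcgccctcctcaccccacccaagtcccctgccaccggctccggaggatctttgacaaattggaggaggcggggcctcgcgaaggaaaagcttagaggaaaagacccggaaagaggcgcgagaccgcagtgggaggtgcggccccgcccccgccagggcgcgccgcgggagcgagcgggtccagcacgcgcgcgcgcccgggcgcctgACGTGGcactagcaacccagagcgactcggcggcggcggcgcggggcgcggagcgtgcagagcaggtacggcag
The word CCACGT or its reverse complement occurs once in Sec24b, Sec24c and Sec24d and not in Sec24a. In Sec24d it is part of the 8-letter word TGACGTGG, which begins 26 bases before the start and which the other windows lack.

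The rest of the COPII genes had ratios far below that of Sec24d. Sec23b, one of the Sec23 paralogues that pair with Sec24, was at 77.7 TPM in plasma cells and 42.2 TPM in naive B cells, a centred ratio of 1.85 (interval 1.88 to 2.01). Sec23a was at 18.7 TPM in plasma cells and 20.3 TPM in naive B cells, at 0.87 (interval 0.87 to 1.07). Sec23b thus made up 80.6% of Sec23 TPM in plasma cells and 67.6% in naive B cells. The GTPase Sar1b was at 59.2 TPM in plasma cells and 36.6 TPM in naive B cells (1.67, interval 1.64 to 1.86). Its paralogue Sar1a was at 70.9 TPM in plasma cells and 69.1 TPM in naive B cells (1.02, interval 1.04 to 1.15). Sar1b made up 45.5% of Sar1 TPM in plasma cells and 34.6% in naive B cells, so Sar1a was the more abundant of the pair in both. The Sec23 genes summed to 0.537 times the Sec24 genes in plasma cells and 0.332 times in naive B cells.

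The outer cage and the exit site genes came next. Sec13, which also belongs to the nuclear pore, was at 119 TPM in plasma cells and 85.5 TPM in naive B cells (1.47), and its cage partner Sec31a at 58.0 TPM in plasma cells and 57.6 TPM in naive B cells. Sec31a sat just outside the threshold at 0.996, while Ergic2 and Sar1a sat just inside at 1.01 and 1.02. Preb, the exchange factor that loads Sar1 with GTP at the ER, was at 102 TPM in plasma cells and 75.9 TPM in naive B cells (1.40), and Tfg, which organises exit sites, at 2.03 with 84.4 TPM in plasma cells and 40.6 TPM in naive B cells. The scaffold Sec16a (0.70) and Sec23ip (0.73) lay between, and both had fewer TPM in plasma cells. Sec16a had 50.0 TPM in plasma cells and 61.1 TPM in naive B cells, and Sec23ip 25.2 TPM in plasma cells and 30.3 TPM in naive B cells.

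Receptors for cargo and for ER residents formed the class with the largest differences. Of these, 9 of 9 were at least 2-fold higher (median 2.56), against 16.0% of all genes. Without centring their median was 1.57, with Ergic2 at 0.02 and Mcfd2 at 0.05. Ergic1, a membrane protein that cycles between ER and Golgi, was at 161 TPM in plasma cells and 25.5 TPM in naive B cells, a ratio of 3.60 (interval 3.40 to 3.57). Lman1, the lectin ERGIC-53, was at 151 TPM in plasma cells and 24.1 TPM in naive B cells, with an interval of 3.62 to 3.77. Its soluble partner Mcfd2, with which it exports coagulation factors in humans, was at 30.3 TPM in plasma cells and 29.1 TPM in naive B cells. Lman1 stood at 4.98 times the level of Mcfd2 in plasma cells and 0.826 times in naive B cells, so the level of the receptor relative to its partner differed between the libraries. Surf4, a receptor for soluble secreted proteins, was at 198 TPM in plasma cells and 65.9 TPM in naive B cells (2.56), and the lectin Lman2 at 96.9 TPM in plasma cells and 60.0 TPM in naive B cells (1.67).

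Ergic2 had nearly the same TPM in both libraries, 64.6 in plasma cells and 63.6 in naive B cells, and its place among the higher genes depended on the unit. By estimated counts its centred ratio was 0.60 (interval 0.53 to 0.67). The short transcript Ergic2-007, of 399 bases, held 32.2% of Ergic2 TPM in plasma cells and 9.77% in naive B cells, and its 288 estimated counts in plasma cells gave 20.8 TPM. It was singled out after its values were seen.

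The KDEL receptors retrieve chaperones that end in the KDEL signal. Kdelr1 was at 129 TPM in plasma cells and 74.1 TPM in naive B cells (1.78, interval 1.83 to 1.98), and Kdelr2 at 101 TPM in plasma cells and 28.5 TPM in naive B cells (2.78, interval 2.79 to 2.98). Kdelr3 was at 6.21 TPM in plasma cells and 0.209 TPM in naive B cells, with 336 counts in plasma cells and only 6 in naive B cells. Its count ratio of 5.95 therefore has a wide interval, 4.81 to 7.40. The family summed to 236 TPM in plasma cells and 103 TPM in naive B cells. Kdelr1 led in both libraries by TPM, with 54.5% of the family in plasma cells and 72.1% in naive B cells, while Kdelr2 had 42.9% in plasma cells and 27.7% in naive B cells. By estimated counts, which are not corrected for length, the order in plasma cells was the other way, with Kdelr1 at 44.96% and Kdelr2 at 52.6% in plasma cells and 62.6% and 37.2% in naive B cells. In plasma cells the transcript Kdelr1-004, of 832 bases, held 43.0% of Kdelr1 TPM with 1717 estimated counts. Kdelr1-001, of 1598 bases, held 53.0% with 4185. The order by TPM in plasma cells therefore depends on how reads were divided among transcripts, an estimate without a measure of error. Kdelr3 stayed a minor member at 2.63% in plasma cells and 0.204% in naive B cells.

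Of 10 COPI and Arf genes 6 were higher by 2-fold or more, against 16.0% of all genes, and the median was 1.17. Among the coat subunits Cope had the highest ratio. It encodes epsilon-COP and was at 312 TPM in plasma cells and 129 TPM in naive B cells, a ratio of 2.26 (interval 2.31 to 2.44). Copa, Copb1, Copb2, Copz1 and Arcn1, which share the heptameric coat with it, had ratios from 0.85 to 1.27, with Copb2 (1.27) and Copz1 (1.06) past the threshold and Copa (0.91), Arcn1 (0.89) and Copb1 (0.85) short of it. Those 5 genes, uncentred, summed to 514 TPM in plasma cells and 513 TPM in naive B cells. Cope was at 3.04 times their mean level in plasma cells and 1.26 times in naive B cells. Its longest transcript, Cope-001 of 1300 bases, held 30.1% of Cope TPM in plasma cells and 23.0% in naive B cells. The rest lay on transcripts of 837 bases or fewer, so these multiples depend on how reads were divided among transcripts.

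Regulators of the coat ranged more widely. Arfgap3, a GTPase-activating protein for Arf1, was at 34.8 TPM in plasma cells and 6.75 TPM in naive B cells, a ratio of 3.20 (interval 3.27 to 3.58). Gbf1, the exchange factor that activates Arf at the early Golgi, was at 28.3 TPM in plasma cells and 36.7 TPM in naive B cells (0.63, interval 0.63 to 0.74). These opposite regulators of Arf were thus the highest and the lowest of their class. The GTPases themselves were abundant: Arf1 was at 284 TPM in plasma cells and 230.3 TPM in naive B cells (1.29), and Arf4 at 181 TPM in plasma cells and 128 TPM in naive B cells (1.48).

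Of 6 SNAREs 3 were higher by 2-fold or more, against 16.0% of all genes, and the median was 1.06. Bet1 was at 46.8 TPM in plasma cells and 17.0 TPM in naive B cells, a ratio of 2.39 (interval 2.38 to 2.65), followed by Sec22b (1.68, with 65.3 TPM in plasma cells and 40.1 TPM in naive B cells) and Stx5a (1.27, with 97.5 TPM in plasma cells and 79.9 TPM in naive B cells). These are the ER to Golgi SNAREs together with Gosr2, which was at 0.85 with 59.2 TPM in plasma cells and 65.3 TPM in naive B cells. Gosr1, a SNARE that acts within the Golgi, was at 10.3 TPM in plasma cells and 24.98 TPM in naive B cells, a ratio of -0.22 (interval -0.32 to -0.13), and Ykt6 at 32.9 TPM in plasma cells and 52.3 TPM in naive B cells (0.33). The ratio of Gosr1 was 0.11 with TMM factors, so its sign depends on the scaling.

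Tethers, golgins and Rab1 had the lowest median of the 5 roles, 0.45, with 3 of 9 at least 2-fold higher, against 16.0% of all genes. Their summed TPM was 451 in plasma cells and 508 in naive B cells. Gorasp2, the Golgi stacking protein GRASP55, led with 115 TPM in plasma cells and 80.3 TPM in naive B cells (1.501, interval 1.52 to 1.63), while its paralogue Gorasp1 was at 5.01 TPM in plasma cells and 7.72 TPM in naive B cells (0.45). The tether Uso1, also called p115, was at 61.2 TPM in plasma cells and 50.0 TPM in naive B cells (1.27). The golgins it binds, Golga2 (GM130) and Golgb1 (giantin), were at 0.14 and 0.90. Golga2 had 23.2 TPM in plasma cells and 42.7 TPM in naive B cells, and Golgb1 21.8 TPM in plasma cells and 23.2 TPM in naive B cells. The TRAPP subunits Trappc1 and Trappc3, part of the exchange factor for Rab1, were at 0.44 and -0.04. Trappc1 had 52.9 TPM in plasma cells and 77.5 TPM in naive B cells, and Trappc3 had 23.0 TPM in plasma cells and 47.9 TPM in naive B cells.

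The Rab1 paralogues lay on opposite sides of 0 under each of the 5 scalings, though Rab1b was only at -0.02 with TMM factors. Rab1 was at 114 TPM in plasma cells and 84.7 TPM in naive B cells (1.41, interval 1.35 to 1.47), and Rab1b at 35.3 TPM in plasma cells and 93.8 TPM in naive B cells (-0.40, interval -0.43 to -0.28). Rab1 made up 76.3% of their TPM in plasma cells and 47.4% in naive B cells, so the more abundant gene of the pair differed between the libraries. These genes are close in sequence, and how their shared reads were divided is an estimate of the authors' software.

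The share of each transcript within its gene was compared next, in 30 genes with more than 1 transcript, since 18 had a single one. Of 147 transcripts of the 48 genes, 83 reached 10 estimated counts per 1000000 in 1 library, and 2 of these differed in their share of the gene by at least 25 percentage points. A difference of at least 10 points was seen for 21 transcripts of 12 genes. The 83 include transcripts of genes with a single one, whose share cannot differ. These counts are not set against those of all transcripts in the libraries, so they do not show whether such differences are usual. The longest transcript of Sec31a, Sec31a-202 with a coding sequence of 1231 codons, held 95.1% of Sec31a TPM in plasma cells and 68.7% in naive B cells. Sec31a-201 (1192 codons) held 3.52% in plasma cells and 21.6% in naive B cells. Rab1-204 held practically none of Rab1 TPM in plasma cells and 27.5% in naive B cells, while Rab1-001 held 35.5% in plasma cells and 16.5% in naive B cells. Sec31a thus had nearly equal TPM in total but a larger share of its longest form in plasma cells. Transcript estimates came without any measure of their error.

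Further genes of the same route are given for comparison, and the difference between the lists was not tested. Of 93 measured genes from a list of further coat, SNARE, tether and Golgi genes, 89 reached 5 TPM in 1 library, of which 17 were at least 2-fold higher, 67 lay between and 5 were lower. The median over the 92 with at least 1 TPM in 1 library was 0.14, and that of all genes at this limit was -0.13. The share of higher genes, 19.1%, lay near the 16.0% of all genes. Of all genes 22.0% were lower, a larger share than the 5 of these 89. Copz2, the alternative zeta subunit of COPI, was highest at 3.75 (8.22 TPM in plasma cells and 0.358 TPM in naive B cells). It had 233 estimated counts in plasma cells and only 5 in naive B cells, so its count ratio of 5.68 has a wide interval, 4.44 to 7.32. Next came Creb3l2 (3.06), a transcription factor of secretory genes, Yif1b (2.57), Nbas (2.53), a tether for retrograde vesicles, and Trappc6a (2.48). The lowest were the SNARE Stx17 (-1.90, with 3.56 TPM in plasma cells and 32.7 TPM in naive B cells), the COG tether subunits Cog5 (-1.18) and Cog1 (-1.17), Rab33b (-1.06) and the golgin Gcc2 (-1.01). Without centring 6 of the 89 were higher and 38 lower, against 7.75% of all genes higher and 57.6% lower.

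**Figure D4:**
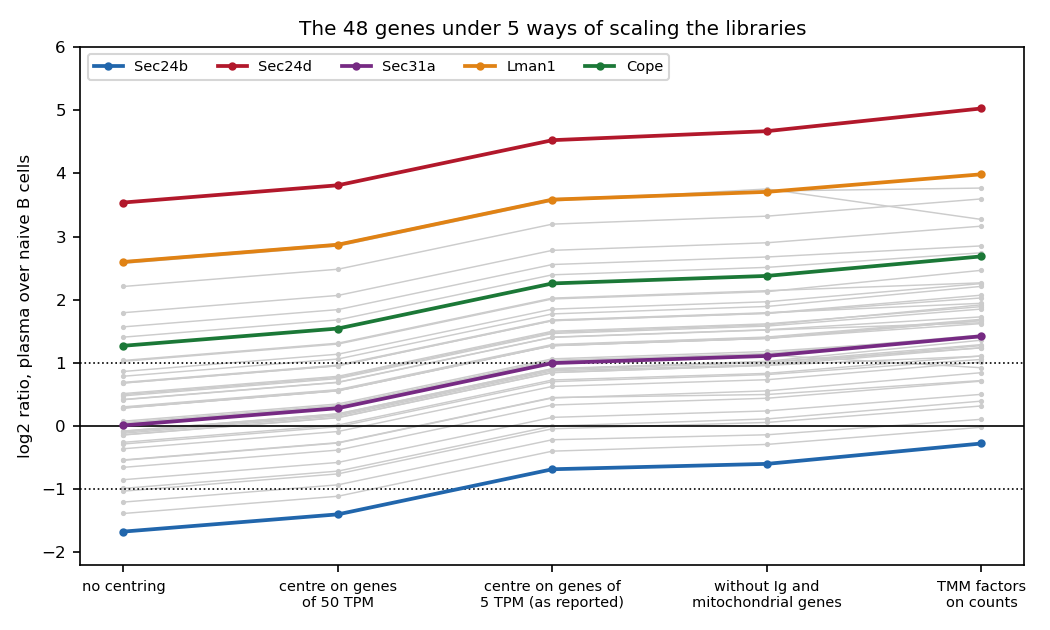
Log2 ratio of plasma over naive B cells for the 48 genes under 5 ways of scaling the libraries, each line a gene and 5 of them coloured, with dotted lines at 2-fold. Sec24d ranges from 3.54 to 5.03 and Lman1 from 2.60 to 3.98, whereas Sec31a ranges from 0.01 to 1.42.

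Promoters of 43 of the 48 genes were searched for 10 words on both strands, and those of Kdelr2, Lman1, Arcn1, Golgb1 and Trappc1 were not. The words include elements of the unfolded protein response and their parts, the cyclic AMP response element and the E-box. The word TGACGTGG, the core of the UPRE to which XBP1 binds, was found in 8 of the 43 genes (9 of their 48 promoter windows, 18.8%), against 0.676% of all 32851 windows and 0.886% of windows of genes with at least 5 TPM. Among the further genes of the pathway 2 of 80 held it. Sites of 7 of these genes are shown so that they can be compared, with the word or its reverse complement in capitals, 5′ to 3′ on the strand of the gene.
Sec24d (chr3:123267458-123267489, plus strand): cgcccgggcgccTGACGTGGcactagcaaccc
Kdelr3 (chr15:79516366-79516397, plus strand): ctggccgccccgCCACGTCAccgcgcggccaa
Copb1 (chr7:114254689-114254720, minus strand): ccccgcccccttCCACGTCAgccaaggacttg
Copb2 (chr9:98563712-98563743, plus strand): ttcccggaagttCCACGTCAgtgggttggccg
Arf1 (chr11:59228227-59228258, minus strand): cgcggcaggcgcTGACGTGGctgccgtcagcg
Gbf1 (chr19:46152534-46152565, plus strand): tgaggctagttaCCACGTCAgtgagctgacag
Stx5a (chr19:8741421-8741452, plus strand): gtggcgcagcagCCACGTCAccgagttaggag
The word lies between 84 bases before and 40 bases after the start in these genes, and Stx5a holds it on both strands, of which 1 is shown. Arf1 has 2 annotated starts whose windows share its site. A match is a description of the letters and not a binding site or a cause.

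The ratios of the genes with and without the word had nearly the same median. Of the 8 genes 5 passed the 2-fold threshold and their median ratio was 1.27 (0.63 to 4.53), and of the 35 without it 22 passed with a median of 1.27 (-0.68 to 3.60). Sec24d and Kdelr3 had it, and so did Gbf1 and Copb1, which lay between. Across all genes measured, 76 with the word passed the 5 TPM limit, of which 26 (34.2%) were called higher and 8 lower. Of the 10191 genes that passed this limit with or without the word, 16.0% were called higher and 22.0% lower. The 76 include the 8 genes above, 5 of them called higher, so their share is not independent of those genes. The difference from all genes was not tested. The ERSE of the unfolded protein response (CCAAT, then any 9 bases, then CCACG) and the ERSE-II (ATTGG, any 1 base, then CCACG) were in none of the 43, against 0.119% and 0.0365% of all windows and 0.146% and 0.0673% of windows of genes with at least 5 TPM, the ERSE first. For the other words the share of windows of genes with at least 5 TPM is given after that of all windows. The shorter CCACGT, which TGACGTGG contains, was in 18 of the 43 (8.31% and 11.7%), the cyclic AMP response element TGACGTCA in 2, in Cope and Gosr2 (1.79% and 3.20%), and the E-box CACGTG in 5 (7.15% and 10.7%). Of the remaining words, GCCACGT was in 11 (2.58% and 4.05%), CCACG in 30 (32.8% and 48.1%), CCAAT in 17 (37.4% and 38.7%) and TTGG joined to CCACG in none (0.240% and 0.493%). CCACG lies within CCACGT, which lies within GCCACGT and the UPRE core, so these counts overlap.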

How the data were processed

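RNA was isolated from sorted cells, selected for mRNA and sequenced as strand-marked (dUTP) libraries, per the labels' protocols. The deposited tables hold the authors' estimated counts and TPM, a length-normalised abundance, for 61112 transcripts in each library, per the file headers. The submitters' processing notes list kallisto and the mm9 build. Neither the kallisto version nor its index appears in the sources used here.

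Transcript values were summed by gene symbol. Golgb1 sums 2 gene identifiers. Counts were rounded for intervals (Clopper-Pearson, 95%), covering counting error alone, because PCR copies cannot be told from separate molecules here. With 1 library per cell type there was no test and no replicate to leave out. The pseudocount was 1 TPM, which understates the change of low genes, and a call needed a centred log2 ratio of 1 and at least 5 TPM in 1 library. TMM factors from edgeR 4.0.16 on rounded counts were 0.783 in plasma cells and 1.28 in naive B cells. Python 3.11.15 and scipy 1.17.1 were used, and the calls and intervals were checked on simulated data. Those data were drawn from the naive library with counting error only. They were not given the difference in immunoglobulin share seen here or any error in assigning reads, so neither was checked. Of 95 further pathway genes 93 were found, 6 of them by gene identifier under an older symbol.

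The members, gene lists, roles and alternatives were chosen with earlier results of these data known, and the 10 words searched in promoters after the values of the genes were seen. All 48 genes are named, with full values for the extremes of each role and for the Sec24, Sar1, Sec23 and Kdelr paralogues, and the 5 highest and lowest of the further genes. Transcripts that differed in share by 25 percentage points are named, and Ergic2-007, Sec31a-201 and Rab1-001, below that limit, were chosen after their values were seen. Accessibility and contact files of the series were not used here, since their mm9 coordinates need an mm9 annotation, and the promoters are of GRCm38.p6. The sequence of 1 promoter site is not reported here.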

Additional observations from a re-analysis of the deposited data

How the results depend on the processing

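No paired analysis was possible because each cell type had 1 library. Under each alternative the median of the 48 genes was above 0 and their share of higher genes was above that of all genes. The number of the 48 genes below 0 was 4 as reported, 18 without centring, 11 with the centre on genes of at least 50 TPM and 2 with TMM factors. The counts moved with the centre, and no further cause was tested. Without centring 11 of the 48 genes were higher and 4 lower with a median of 0.29 (further pathway genes 6 higher, 38 lower), against 7.75% of all genes higher and 57.6% lower. With the centre on genes of at least 50 TPM they were 13 and 2, median 0.56 (further genes 8 and 27), against 9.16% of all genes higher and 47.8% lower. With TMM factors they were 38 and none, median 1.63 (24 and 1), against 22.0% of all genes higher and 16.7% lower. Without immunoglobulin and mitochondrial genes they were 33 and none, median 1.39 (22 and 5), against 17.7% of all genes higher and 21.6% lower. With a pseudocount of 5 TPM they were 25 and none, median 1.11 (14 and 1), against 13.6% higher and 12.1% lower. At 1.5-fold 39 of the 48 were higher and 1, Sec24b, lower (further genes 29 and 18), against 24.0% of all genes higher and 36.5% lower, and at 4-fold 11 and none (6 and 0), against 7.68% higher and 5.32% lower. All 11 genes higher without centring were among the 29, which had to be so because centring raises every ratio by the same amount. CPM from the estimated counts gave 30 higher, with Sec31a and Copa added and Ergic2 lost, against 16.2% of all genes. A pseudocount of 0.1 TPM also gave 30, against 16.6%. Filters of 1 TPM, 20 TPM and none gave 29, 28 and 29, against 16.9%, 16.4% and 13.9%. None of the 48 was lower under these alternatives. In the same order, 24.0%, 26.2%, 18.3%, 22.7% and 8.95% of all genes were lower. Among all genes called, 42.1% were higher as reported, 11.9% without centring, 16.1% with the centre on genes of at least 50 TPM and 56.8% with TMM factors. The share of Sec24d was 32.2% in plasma cells and 2.05% in naive B cells by counts, and that of Sar1b 27.3% in plasma cells and 19.2% in naive B cells. Transcripts with a coding sequence alone, an alternative chosen after seeing the data because the target names hold no transcript class, gave the same 29 genes. All transcripts of the 48 genes have a coding sequence, so only the centre could move and the result says little. Depth limits Kdelr3, which had 6 counts in naive B cells, and among the further genes Copz2, which had 5.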
